A study of Homo sapiens with 12 samples.

Results

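The genes described here are 38 human genes of homologous recombination, the Fanconi anaemia pathway and the DNA damage checkpoint, taken by symbol from a table of 55243 gene symbols. The rule is a list of 38 symbols and uses no measured value, but the list was chosen with earlier results of these data known. Each was found once in the table, and all 38 passed the filter on low values that left 14722 genes for testing. By role they were 5 genes of the BRCA1 and BRCA2 complexes, 9 genes of end processing and junction dissolution, 6 genes of strand exchange, 9 genes of the Fanconi core complex and its ubiquitin-conjugating enzyme, 2 genes of the FANCI and FANCD2 pair, 6 checkpoint genes, and POLQ, the polymerase of theta-mediated end joining.

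RNA was sequenced from HT1080, an established fibrosarcoma line with a mutant NRAS gene, in 4 groups of 3 libraries each. The groups were a control siRNA (siNC) or an siRNA against the mutant NRAS (siQ61K), combined with either DMSO or poly(dA:dT), which is double-stranded DNA made synthetically and sensed in the cytosol. Interferon-alpha signalling after this knockdown was the subject of the study. Values are TPM, a share of all transcripts that accounts for the length of each, so levels of different genes can be set side by side, while the depth behind a value is unknown. All 4 groups carry an siRNA, and siQ61K was the only one against NRAS, so effects of its sequence on other transcripts and effects of less NRAS cannot be told apart. No control for the delivery of poly(dA:dT) other than DMSO is named. The labels do not say whether the libraries were made from separate cultures. The p-values therefore speak of the spread among these libraries, which may be technical. The short column names were matched to the sample titles by inference, reading SI as siQ61K and PD as poly(dA:dT). In bulk RNA, fewer cells of a kind and less RNA per cell cannot be told apart.

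Homologous recombination mends a broken chromosome by copying the sister chromatid. Nucleases trim the broken end, the trimmed strand finds and invades the matching one, and helicases and topoisomerases undo the joined molecules. The Fanconi pathway detects DNA strands that are linked to each other, marks the FANCI and FANCD2 pair with ubiquitin and hands the lesion to recombination, while ATM and ATR signal the damage to CHEK2 and CHEK1 and halt the cell cycle. Most of these genes are transcribed best in dividing cells, during DNA replication and before mitosis, and their promoters have been described as carrying E2F sites, CCAAT boxes or the cell cycle element called CHR.

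RefSeq promoter windows were available for 33 of the 38 genes (not for NBN, DNA2, RMI2, RAD54B and FANCI). The 250 bases before each RefSeq start were searched on both strands for 3 kinds of motif, none of which contains another. These were E2F letters (TTTCCCGC, TTTGGCGC, TTTCGCGC or TTTGCCGC), CHR letters (TTTGAA or the self-complementary TTCGAA) and the CCAAT box. The E2F letters were found for 3 of the 33 genes (9.09%), FANCA, FANCC and RMI1, against 3.4% of all 27305 genes in the promoter table, 5.74% of the 10301 of them that were tested here and 44.4% of 36 DNA replication genes. CHR letters were found for 5 of 33 (15.2%), ATM, BRIP1, FANCC, POLQ and UBE2T, against 17.2% of all genes, 13.6% of the tested genes and 53.3% of 30 mitosis genes. A CCAAT box was found for 17 of 33 (51.5%), against 37% of all genes and 41.9% of the tested genes. The share was 58.3% of the replication genes, 58.3% of 48 partner genes in repair and checkpoint control and 76.7% of the mitosis genes. The shares count a gene once if any of its windows held the letters, and a match is a description of the letters, not of a site in use.

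The stretches of 5 of these windows that lie outside annotated exons (GENCODE release 29) are printed 5′ to 3′ on the strand of the gene, from RefSeq on GRCh38.p14, with motif letters of either strand in capitals. CHEK1 and BLM are shown as genes called lower after knockdown, FANCA for its E2F letters, XRCC3 for the most CCAAT boxes in 1 window, 5 before the exons were removed, and UBE2T for its CHR letters.
CHEK1, chr11:125626035-125626223, plus strand: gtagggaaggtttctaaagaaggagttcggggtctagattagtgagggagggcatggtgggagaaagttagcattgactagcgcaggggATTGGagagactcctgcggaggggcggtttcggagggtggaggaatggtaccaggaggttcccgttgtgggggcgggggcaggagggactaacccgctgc
BLM, chr15:90717142-90717326, plus strand: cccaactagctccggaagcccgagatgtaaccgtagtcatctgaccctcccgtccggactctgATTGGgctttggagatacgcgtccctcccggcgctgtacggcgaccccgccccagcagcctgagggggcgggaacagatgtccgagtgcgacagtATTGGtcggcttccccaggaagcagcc
FANCA, chr16:89816658-89816897, minus strand: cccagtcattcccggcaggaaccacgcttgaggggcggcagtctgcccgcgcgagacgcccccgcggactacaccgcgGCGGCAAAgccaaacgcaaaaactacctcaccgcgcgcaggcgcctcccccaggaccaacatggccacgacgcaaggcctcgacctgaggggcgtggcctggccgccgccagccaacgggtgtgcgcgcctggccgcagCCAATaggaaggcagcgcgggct
XRCC3, chr14:103715505-103715701, minus strand: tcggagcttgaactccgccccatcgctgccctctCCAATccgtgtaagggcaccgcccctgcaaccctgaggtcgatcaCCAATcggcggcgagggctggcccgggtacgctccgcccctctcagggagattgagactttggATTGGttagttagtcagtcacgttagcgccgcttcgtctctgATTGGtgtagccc
UBE2T, chr1:202341981-202342186, minus strand: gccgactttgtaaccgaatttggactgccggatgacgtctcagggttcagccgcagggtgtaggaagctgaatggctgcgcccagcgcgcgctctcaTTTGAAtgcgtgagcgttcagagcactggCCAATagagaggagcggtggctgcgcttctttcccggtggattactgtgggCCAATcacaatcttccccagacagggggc
In the CHEK1 stretch the capitals mark 1 CCAAT box, 100 bases before the start. BLM holds 2 of them, 141 and 46 bases before the start, and XRCC3 holds 4. FANCA carries the E2F letters 172 bases and a CCAAT box 33 bases before its start. The UBE2T letters are a CHR 153 bases and 2 CCAAT boxes 124 and 73 bases before the start.

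NRAS itself was first examined as the target of the siRNA. Its level was 59.6, 60.6 and 41.4 TPM in the siNC DMSO libraries and 15.5, 15.2 and 19.9 TPM in the siQ61K DMSO libraries (replicates 1, 2 and 3, an order kept throughout). In the poly(dA:dT) groups the siNC libraries had 43.0, 45.9 and 51.7 TPM and the siQ61K libraries 20.1, 20.3 and 23.5 TPM. Every siQ61K library lay below every siNC library, and TPM per gene does not separate the mutant from the normal allele. VIM, the filament protein of mesenchymal cells, was at 4727.7 to 7742.5 TPM, while EPCAM, CDH1, PTPRC, CD3E and CD14 stayed at or below 0.157 TPM and MYOD1 was listed at 0 in all 12 libraries. KRT8, a keratin of simple epithelia, stood at 330.9 to 570.6 TPM and goes against an absence of epithelial transcripts. The summed level of 4 genes of cycling cells, MKI67, TOP2A, PCNA and CCNB1, was 743.3 to 866.8 TPM under siNC with DMSO and 775.5 to 786.8 TPM under siNC with poly(dA:dT). It was 424.1 to 436.5 TPM for siQ61K plus DMSO and 496.0 to 598.7 TPM for siQ61K plus poly(dA:dT). The genes did not all move alike. With poly(dA:dT) the mean of PCNA was nearly the same, 291.5 TPM under siNC and 290.9 TPM under siQ61K, and in DMSO it was 287.3 and 233.8 TPM. The means of MKI67, TOP2A and CCNB1 were lower under siQ61K both in DMSO and with poly(dA:dT). The part of this difference in cycling genes in the results below was not tested.

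Some technical facts touch many of the values. Across 14667 genes, the difference between siQ61K and siNC in DMSO went with the GC content of the transcript (Spearman 0.501), and the interaction described below went with it in the other direction (-0.651). Most of the 38 genes are poor in GC, with a median of 41.3% against 48.2% for all genes tested, so the counts of called genes were also made after smooth trends with GC content and length were taken out of every library. Values are from the deposited TPM unless they are said to be after this correction. Of the 3 siQ61K DMSO libraries, replicate 3 was the highest for 28 of the 38 genes, and of the 3 siNC poly(dA:dT) libraries, replicate 3 was the highest for 27.

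Under siNC with DMSO the mean levels of the 38 genes ran from 2.22 to 56.6 TPM. RAD51C, a gene of strand exchange, was the most abundant at 56.6 ± 3.28 TPM (SD, n = 3). It was followed by RBBP8, the activator of end trimming also known as CtIP, at 43.9 ± 5.63 TPM, and by TOPBP1, the activator of ATR, at 34.9 ± 4.18 TPM. The next 7, FANCG, CHEK1, NBN, FANCL, CHEK2, FANCI and ATM, lay between 29.5 and 25.2 TPM, and neighbours in that order differed by less than their SDs of 1.13 to 4.89 TPM. At the low end were BRCA2 at 2.91 ± 0.672 TPM, BRIP1 at 2.52 ± 0.239 TPM, UBE2T at 2.29 ± 1.91 TPM and FANCB at 2.22 ± 0.617 TPM, whose libraries overlapped. Pseudogene copies that could take reads from these genes, FANCD2P2, BRCA1P1, RBBP8P1 and CHEK2P1 to CHEK2P5, were listed at 0 in all 12 libraries, as was FANCD2OS, which overlaps FANCD2. FSBP, which shares its locus with RAD54B, reached at most 1.06 TPM, and NBR2, the neighbour that starts beside BRCA1, was at 1.3 to 4.24 TPM.

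In DMSO, knockdown of NRAS went with lower levels of many of these genes and with no called rise. By limma, 15 of the 38 fell (39.5%), against 14.8% of all genes tested, and 0 rose, against 16.6% of all genes. At an unadjusted p under 0.05, 16 were lower and 1 was higher. The median log2 difference was -0.41, against 0.01 over all genes, and 34 of the 38 values were below 0. The 15 were BARD1, MRE11, NBN, RBBP8, EXO1, DNA2, BLM, RMI2, RAD51AP1, RAD51C, FANCG, FANCI, CHEK1, CHEK2 and TOPBP1. After the GC and length correction 13 fell, against 14.4% of all genes, and 0 rose, against 13.1% (15 lower and 0 higher at an unadjusted p under 0.05 by limma), with a median of -0.27. Of these, 10 were shared with the 15: BARD1, CHEK1, CHEK2, DNA2, FANCG, FANCI, MRE11, RAD51AP1, RMI2 and TOPBP1. The calls of BLM, EXO1, NBN, RAD51C and RBBP8 were lost, and ATRIP, FANCA and XRCC3, which are richer in GC, were called instead.

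The number called changed when single libraries were left out. It was 10 without siNC DMSO replicate 1, 8 without siNC DMSO replicate 2 and 9 without siQ61K DMSO replicate 1. The share of all genes called in fits with libraries left out is not given, here or below. Whether such changes are particular to these genes was not tested. With 2 libraries left out together, the third of siQ61K DMSO and the second of siQ61K poly(dA:dT), 16 fell on the deposited values and 10 after the correction. That siQ61K DMSO library was the highest of its group for 28 of the 38 genes. Leaving it out lowers the group mean of those genes, so these 2 counts cannot check the fall. The siNC and siQ61K values did not overlap for 16 of the 38 genes, against 45.8% of all genes tested. For 15 of the 38 they did not overlap and were lower under siQ61K, against 20.4% of all genes tested. Among all genes without overlap 3010 of 6747 were lower, and among the 38 it was 15 of 16. Non-overlap is where an exact two-sided permutation test reaches 0.1, the smallest p that 3 libraries against 3 allow. The calls of RAD51AP1, DNA2, FANCI, FANCG, CHEK2, RMI2 and RAD51C held whichever library was left out, 7 of the 15. BLM and CHEK1 lost theirs without siNC DMSO replicate 2 (limma adjusted p = 0.0525 and 0.0546), and BARD1 without siQ61K DMSO replicate 1 (limma adjusted p = 0.0531). The other 5, MRE11, TOPBP1, NBN, RBBP8 and EXO1, lost theirs without siNC DMSO replicate 1, siNC DMSO replicate 2 or siQ61K DMSO replicate 1, with limma adjusted p up to 0.0892, 0.118, 0.161, 0.145 and 0.144. Of these 5, MRE11, TOPBP1, NBN and EXO1 also lost theirs without siQ61K DMSO replicate 2, NBN and EXO1 without siNC poly(dA:dT) replicate 2, and EXO1 without siNC DMSO replicate 3.

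**Figure D1:**
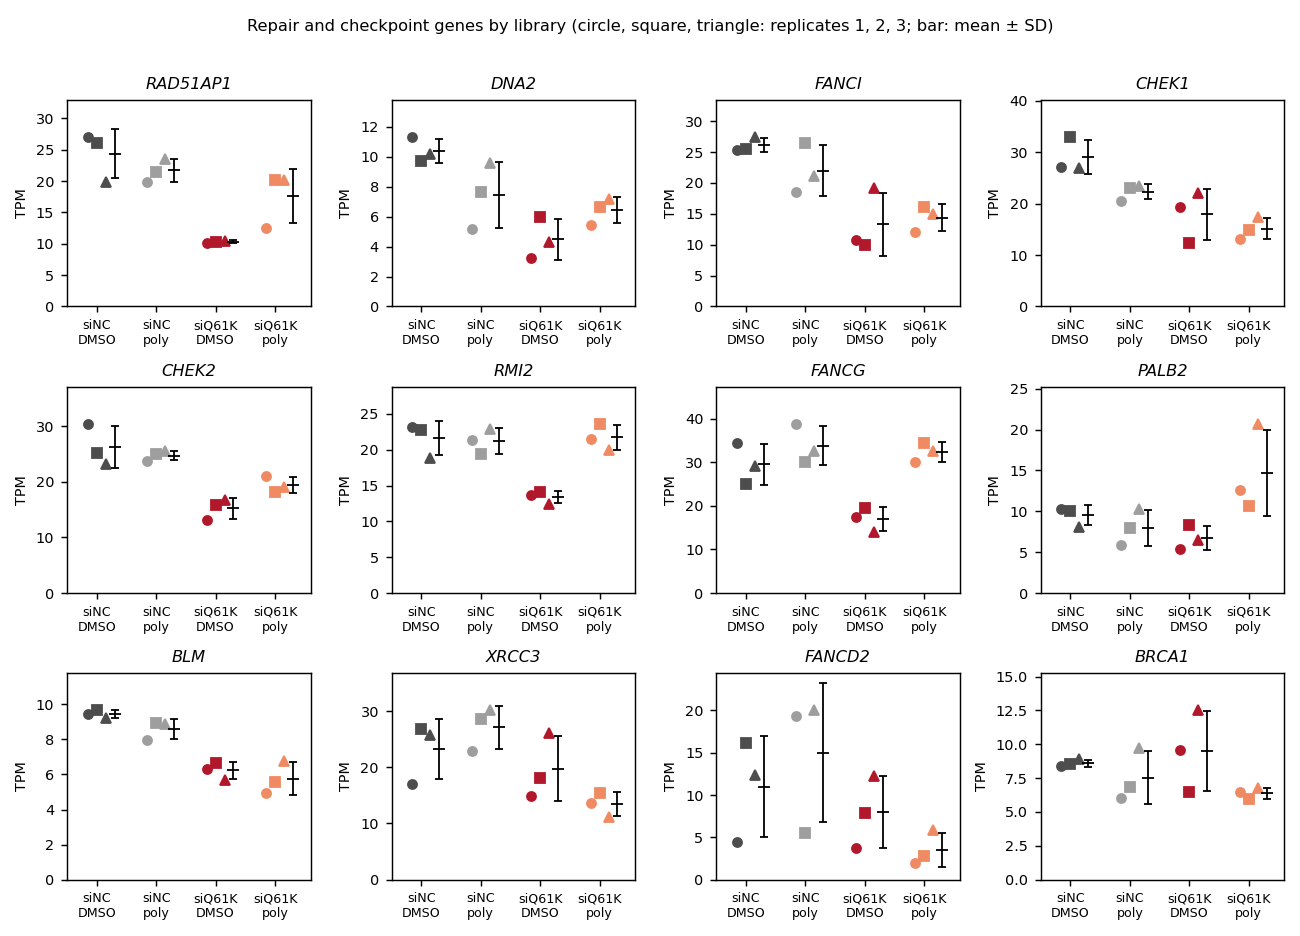
TPM of 12 of the genes in each library (vertical axis, from 0) for the 4 groups on the horizontal axis; symbols mark replicates 1, 2 and 3, and the bar beside them the mean with its SD (n = 3). RAD51AP1, FANCG and RMI2 are lower in all 3 siQ61K DMSO libraries than in any siNC DMSO library, while the FANCD2 libraries spread from 4.4 to 16.1 TPM within siNC DMSO alone.

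With poly(dA:dT) in both groups, fewer of the genes differed between siQ61K and siNC. By limma 5 of 38 fell (13.2%), against 12.6% of all genes, and 2 rose (5.26%), against 8.71%, so the share that fell was near that of all genes. The genes that fell were BLM, FANCA, FANCD2, RAD51C and XRCC3, and those that rose were FANCF and PALB2. The median log2 difference was -0.23, against -0.07 over all genes. After the correction 8 fell, against 13.2% of all genes, and 2 rose, against 13.7%. FANCA lost its call, FANCF and PALB2 kept theirs, and CHEK1, FANCI, MRE11 and RAD51AP1 joined BLM, FANCD2, RAD51C and XRCC3. The values of the groups did not overlap for 15 of the 38 genes, against 36.7% of all genes. For 11 of the 38 they did not overlap and were lower under siQ61K, against 21% of all genes. Among all genes without overlap 3098 of 5396 were lower, and among the 38 it was 11 of 15. The 2 knockdown comparisons contrast different groups, but their spread was estimated from all 12 libraries in a single model, so their calls are not independent. BLM and RAD51C fell in both, 2 of the 15 and 2 of the 5. The share of all genes that fell in both is not given, before or after the correction. After the correction 5 fell in both, CHEK1, FANCI, MRE11, RAD51AP1 and XRCC3, out of 13 and 8. RAD51C lost its call with median-of-ratios scaling, and BLM and RAD51C lost theirs with quantile normalization. The calls of FANCA and XRCC3 held whichever library was left out, and those of the other 5 did not. Without the same pair of siQ61K libraries as above, 3 fell (FANCA, FANCI and XRCC3) and PALB2 rose.

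**Figure D2:**
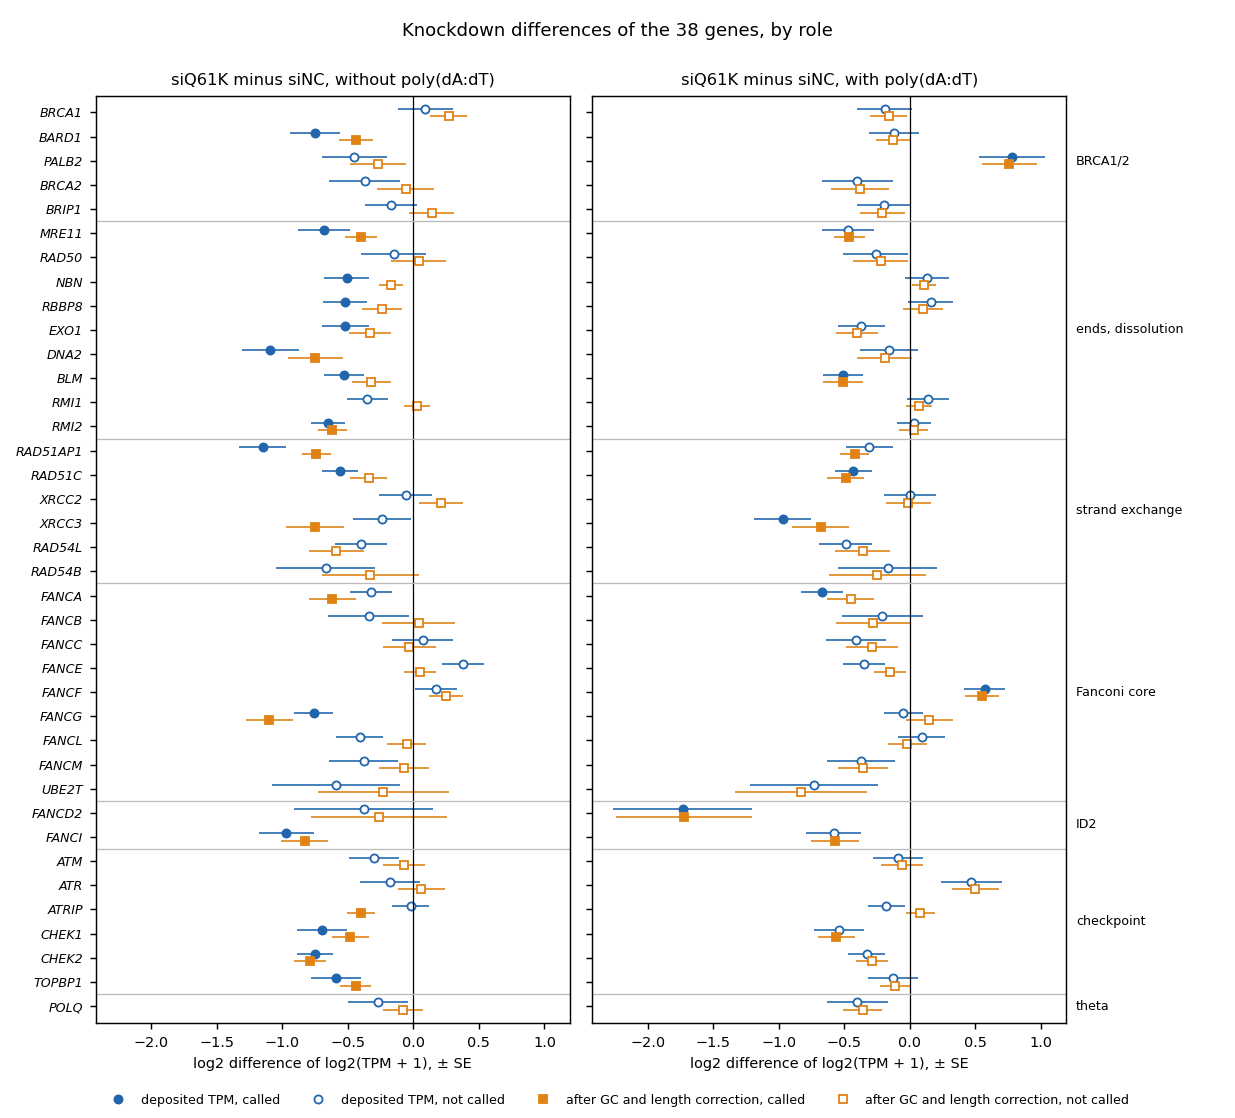
Log2 difference of log2(TPM + 1), siQ61K minus siNC, with the SE of the model (horizontal axis), for each of the 38 genes in order of role (vertical axis), without poly(dA:dT) at left and with it at right. Filled symbols are called at the 0.05 threshold, circles are deposited TPM and squares the values after the GC and length correction; 15 filled circles lie left of 0 in the left panel and 5 in the right.

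Among the 5 genes of the BRCA1 and BRCA2 complexes, 1 fell in DMSO (20.0%, against 14.8% of all genes). With poly(dA:dT) 1 rose (20.0%, against 8.71% of all genes). BRCA1, the ubiquitin ligase subunit and scaffold that starts recombination, was at 8.37, 8.53 and 8.89 TPM under siNC DMSO, 9.55, 6.5 and 12.5 under siQ61K DMSO, 6.05, 6.82 and 9.76 under siNC poly(dA:dT) and 6.44, 5.93 and 6.78 under siQ61K poly(dA:dT). The siQ61K DMSO values surround those of siNC DMSO, with a log2 difference of 0.09 ± 0.21 (SE) without and -0.19 ± 0.21 with poly(dA:dT), neither called. BARD1, the partner that BRCA1 needs to be stable, was at 5.73, 6.75 and 6.41 TPM under siNC DMSO and at 2.74, 3.1 and 4.29 under siQ61K DMSO, without overlap. That is a log2 difference of -0.75 ± 0.19 (limma adjusted p = 0.0108), and -0.44 ± 0.13 after the correction. Under poly(dA:dT) it was at 3.88, 4.08 and 5.94 under siNC and 3.9, 3.9 and 4.64 under siQ61K, which overlap.

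BRCA2, a mediator of strand exchange, was low everywhere, at 2.14, 3.2 and 3.38 TPM under siNC DMSO, 1.66, 1.37 and 3.26 under siQ61K DMSO, 2.56, 4.03 and 2.9 under siNC poly(dA:dT) and 1.48, 2.3 and 2.71 under siQ61K poly(dA:dT). Its groups overlapped in both knockdown comparisons, with log2 differences of -0.37 ± 0.27 and -0.40 ± 0.27 that were not called. PALB2, the bridge between BRCA1 and BRCA2, is described here after its values were seen. It was at 10.3, 10.1 and 8.14 TPM under siNC DMSO, 5.42, 8.3 and 6.52 under siQ61K DMSO, 5.82, 7.94 and 10.3 under siNC poly(dA:dT) and 12.6, 10.7 and 20.7 under siQ61K poly(dA:dT). The last group stands above the other 3, and replicate 3 in it is the highest of all 12. In the poly(dA:dT) comparison it was higher under siQ61K by 0.78 ± 0.25 on the log2 scale (limma adjusted p = 0.0388), a call lost without siNC DMSO replicate 2, siNC poly(dA:dT) replicate 1 or 2, or siQ61K poly(dA:dT) replicate 3 (limma adjusted p up to 0.16). BRIP1, a helicase that binds BRCA1, was at 1.83 to 3.96 TPM over the 12 libraries and was called in no comparison.

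The genes that trim broken ends and undo joined molecules had 7 of 9 called lower in DMSO on the deposited values (77.8%, against 14.8% of all genes). All 9 values were below 0, with a median log2 difference of -0.52. After the correction 3 of the 9 were called (DNA2, MRE11 and RMI2; 33.3%, against 14.4% of all genes). With poly(dA:dT) 1 of 9 was called on the deposited values (BLM), or 11.1%, near the 12.6% of all genes. DNA2, a nuclease and helicase of long-range end trimming, was at 11.3, 9.74 and 10.2 TPM under siNC DMSO and at 3.21, 5.96 and 4.28 under siQ61K DMSO. All 3 siQ61K values lie below the lowest siNC value, with a log2 difference of -1.09 ± 0.22 (limma adjusted p = 0.00319), and -0.75 ± 0.21 after the correction. The values with poly(dA:dT) were 5.14, 7.64 and 9.58 under siNC and 5.46, 6.67 and 7.17 under siQ61K, and the groups overlap. MRE11, the nuclease of the complex that first binds a break, was at 22.4, 20.1 and 18.0 TPM under siNC DMSO, 11.6, 9.4 and 16.3 under siQ61K DMSO, 13.6, 16.1 and 19.1 under siNC poly(dA:dT) and 12.7, 9.12 and 12.5 under siQ61K poly(dA:dT). In both comparisons the siQ61K libraries lie below the siNC libraries, with log2 differences of -0.68 ± 0.20 (limma adjusted p = 0.0206) and -0.47 ± 0.20 (limma adjusted p = 0.114). After the correction they were -0.40 ± 0.12 and -0.46 ± 0.12, both called.

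BLM, the helicase of junction dissolution that is lost in Bloom syndrome, had some of the tightest replicates. It was at 9.47, 9.65 and 9.23 TPM under siNC DMSO, 6.34, 6.68 and 5.7 under siQ61K DMSO, 7.95, 8.93 and 8.89 under siNC poly(dA:dT) and 4.92, 5.58 and 6.77 under siQ61K poly(dA:dT). Neither pair of groups overlapped, with log2 differences of -0.53 ± 0.15 (limma adjusted p = 0.0158) and -0.51 ± 0.15 (limma adjusted p = 0.0264). After the correction the first was -0.32 ± 0.15 and not called, and the second was -0.51 ± 0.15 and called. The second call was lost without siNC poly(dA:dT) replicate 2 or 3 or siQ61K poly(dA:dT) replicate 1 or 2 (limma adjusted p up to 0.0866). RMI2, which works in the same complex as BLM, followed another course, at 23.1, 22.8 and 18.9 TPM under siNC DMSO, 13.7, 14.1 and 12.4 under siQ61K DMSO, 21.4, 19.4 and 22.9 under siNC poly(dA:dT) and 21.5, 23.6 and 20.0 under siQ61K poly(dA:dT). The siQ61K DMSO group alone was low, with a log2 difference of -0.65 ± 0.13 against siNC DMSO (limma adjusted p = 0.00248), and -0.62 ± 0.11 after the correction. The 2 siRNA groups overlapped with poly(dA:dT) (0.03 ± 0.13).

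The other 5 genes of this role are given by their means (SD, n = 3). NBN, the third subunit of the MRE11 complex, went from 28.2 ± 3.37 TPM under siNC DMSO to 19.8 ± 4.42 under siQ61K DMSO. RBBP8 went from 43.9 ± 5.63 to 30.9 ± 7.88 TPM, and EXO1, an exonuclease of long-range trimming, from 12.8 ± 1.11 to 8.64 ± 1.28 TPM. The log2 differences of these 3 were -0.51 ± 0.17, -0.52 ± 0.17 and -0.52 ± 0.18, called on the deposited values and not after the correction. RAD50, the clamp of the MRE11 complex, and RMI1, which joins BLM to its topoisomerase, were not called in either knockdown comparison.

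Of the 6 strand exchange genes, 2 fell in DMSO (RAD51AP1 and RAD51C) and 2 fell with poly(dA:dT) (RAD51C and XRCC3). Each count is 33.3%, against 14.8% of all genes in DMSO and 12.6% with poly(dA:dT). RAD51AP1, which helps the strands pair, had the largest fall of the 38 in DMSO on the deposited values. It was at 27.0, 26.1 and 19.9 TPM under siNC DMSO and at 10.1, 10.3 and 10.5 under siQ61K DMSO, a log2 difference of -1.15 ± 0.18 (limma adjusted p = 0.000494) and of -0.74 ± 0.11 after the correction. The siQ61K DMSO libraries have an SD of 0.236 TPM, and all 3 lie below the lowest siNC DMSO library. The poly(dA:dT) groups were at 19.9, 21.5 and 23.6 under siNC and at 12.5, 20.1 and 20.1 under siQ61K, where 2 of the 3 siQ61K libraries lie within the siNC range. RAD51C, at 57.1, 59.5 and 53.0 TPM under siNC DMSO, was at 41.2, 32.4 and 40.7 under siQ61K DMSO, and at 65.7, 65.8 and 51.8 under siNC against 51.4, 39.0 and 45.0 under siQ61K with poly(dA:dT). The groups did not overlap in either comparison, with log2 differences of -0.56 ± 0.14 (limma adjusted p = 0.00874) and -0.43 ± 0.14 (limma adjusted p = 0.0442). After the correction the first was -0.34 ± 0.14 and no longer called. The second call was lost when any of 8 libraries was left out: siNC DMSO replicates 1 to 3, siNC poly(dA:dT) replicates 1 and 2, siQ61K poly(dA:dT) replicates 2 and 3 and siQ61K DMSO replicate 1 (limma adjusted p up to 0.164).

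XRCC3, which works with RAD51C and is the member richest in GC (63.8%), was at 17.1, 26.8 and 25.7 TPM under siNC DMSO and 14.9, 18.1 and 26.1 under siQ61K DMSO, with overlap. With poly(dA:dT) the groups parted, at 22.8, 28.6 and 30.1 under siNC and 13.7, 15.4 and 11.2 under siQ61K. The log2 differences were -0.24 ± 0.22 (limma adjusted p = 0.438) and -0.97 ± 0.22 (limma adjusted p = 0.00718) on the deposited values and -0.75 ± 0.22 and -0.68 ± 0.22 after the correction, both then called. The other 3 of this role, XRCC2, RAD54L and RAD54B, were not called in any comparison. RAD54L, a motor protein of strand exchange, was at 16.7 ± 2.96 TPM under siNC DMSO and 12.3 ± 1.55 under siQ61K DMSO (SD, n = 3), and RAD54B spread from 3.82 to 17.0 TPM over the 12 libraries.

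In the Fanconi core complex, which attaches ubiquitin to the FANCI and FANCD2 pair, 1 of 9 fell in DMSO and, with poly(dA:dT), 1 fell and 1 rose. Each count is 11.1%, near the shares of all genes, 14.8% lower in DMSO and 12.6% lower and 8.71% higher with poly(dA:dT). FANCG, a scaffold subunit, was at 34.4, 24.9 and 29.2 TPM under siNC DMSO and at 17.4, 19.4 and 14 under siQ61K DMSO. The groups did not overlap, with a log2 difference of -0.76 ± 0.15 (limma adjusted p = 0.00281) that was -1.10 ± 0.18 after the correction. Its values with poly(dA:dT) were 38.8, 30.0 and 32.5 under siNC and 30.0, 34.5 and 32.5 under siQ61K, which overlap (-0.05 ± 0.15). FANCA, its partner subunit in the same complex, was at 27.2, 22.3 and 23.6 TPM under siNC DMSO, 17.1, 16.9 and 24.4 under siQ61K DMSO, 35.1, 29.9 and 30.8 under siNC poly(dA:dT) and 17.4, 23.5 and 18.4 under siQ61K poly(dA:dT). Without poly(dA:dT) replicate 3 of siQ61K lies within the siNC range (-0.32 ± 0.16, limma adjusted p = 0.149), and with it the groups part (-0.67 ± 0.16, limma adjusted p = 0.0108). The correction exchanged which of the 2 was called, at -0.62 ± 0.18 without and -0.45 ± 0.18 with poly(dA:dT).

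FANCF, an adaptor of the core complex, was at 7.64, 7.27 and 5.14 TPM under siNC DMSO and 7.71, 7.23 and 7.67 under siQ61K DMSO, with overlap. With poly(dA:dT) it was at 5.36, 5.78 and 5.93 under siNC and 8.34, 9.75 and 8.83 under siQ61K, all higher, a log2 difference of 0.57 ± 0.16 (limma adjusted p = 0.0217). The call was lost without siNC poly(dA:dT) replicate 1 or 2 or siQ61K poly(dA:dT) replicate 2 or 3 (limma adjusted p up to 0.0778). UBE2T, the ubiquitin-conjugating enzyme of the pathway, was scarce, from 4.12 TPM in siNC DMSO replicate 1 to a listing at 0 in 2 of the siQ61K poly(dA:dT) libraries, and its groups overlapped. FANCL, the ubiquitin ligase subunit, was at 27.9 ± 4.89 TPM under siNC DMSO and 20.9 ± 4.87 under siQ61K DMSO (SD, n = 3), a log2 difference of -0.41 ± 0.18 that was not called. FANCB, FANCC, FANCE and FANCM were called in neither knockdown comparison.

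FANCI and FANCD2, the pair that the core complex marks with ubiquitin, differed in how well their libraries held together. FANCI was at 25.4, 25.5 and 27.4 TPM under siNC DMSO, 10.7, 10 and 19.2 under siQ61K DMSO, 18.5, 26.5 and 21.1 under siNC poly(dA:dT) and 12, 16.1 and 15 under siQ61K poly(dA:dT). No siQ61K value reached a siNC value within either comparison, with log2 differences of -0.97 ± 0.21 (limma adjusted p = 0.00451) and -0.58 ± 0.21 (limma adjusted p = 0.0719), and of -0.83 ± 0.18 and -0.57 ± 0.18 after the correction, both then called. FANCD2 was at 4.4, 16.1 and 12.4 TPM under siNC DMSO, 3.78, 7.9 and 12.3 under siQ61K DMSO, 19.4, 5.53 and 20.0 under siNC poly(dA:dT) and 1.94, 2.83 and 5.82 under siQ61K poly(dA:dT). Its groups overlap in both comparisons, and its SD was 8.2 TPM around a mean of 15 TPM under siNC poly(dA:dT). The log2 difference with poly(dA:dT), -1.73 ± 0.53, was called (limma adjusted p = 0.0351) although 1 siNC library lies below 1 siQ61K library. That call was lost without siNC poly(dA:dT) replicate 1 or 3 or siQ61K poly(dA:dT) replicate 1 or 2 (limma adjusted p up to 0.121).

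Among the 6 checkpoint genes, 3 fell in DMSO (CHEK1, CHEK2 and TOPBP1), against 14.8% of all genes. With poly(dA:dT) 0 of the 6 were called, against 12.6% lower and 8.71% higher over all genes. After the correction 4 fell in DMSO and 1 with poly(dA:dT), against 14.4% and 13.2% of all genes. ATM and ATR, the kinases that act first, were not called. Their differences were not tested against those of CHEK1 and CHEK2, which act second. CHEK1, which ATR switches on at stalled replication forks, was at 27.2, 32.9 and 27.0 TPM under siNC DMSO, 19.4, 12.3 and 22 under siQ61K DMSO, 20.6, 23.0 and 23.4 under siNC poly(dA:dT) and 13.2, 14.8 and 17.3 under siQ61K poly(dA:dT). Neither pair of groups overlapped, with log2 differences of -0.70 ± 0.19 (limma adjusted p = 0.0121) and -0.54 ± 0.19 (limma adjusted p = 0.0542), and -0.48 ± 0.14 and -0.56 ± 0.14 after the correction, both then called. CHEK2, which ATM switches on at breaks, was at 30.4, 25.2 and 23.1 TPM under siNC DMSO, 13.1, 15.8 and 16.7 under siQ61K DMSO, 23.8, 24.9 and 25.5 under siNC poly(dA:dT) and 21.0, 18.2 and 19.1 under siQ61K poly(dA:dT). Its siQ61K libraries lay below the siNC libraries in both comparisons, with log2 differences of -0.75 ± 0.14 (limma adjusted p = 0.00141) and -0.33 ± 0.14 (limma adjusted p = 0.0971), or -0.79 ± 0.12 and -0.29 ± 0.12 after the correction, with only the first called.

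ATM was at 20.4, 26.8 and 28.5 TPM under siNC DMSO, 18.1, 19.1 and 23.6 under siQ61K DMSO, 16.2, 20.0 and 22.4 under siNC poly(dA:dT) and 18.7, 14 and 23.0 under siQ61K poly(dA:dT). Its groups overlapped throughout, with log2 differences of -0.30 ± 0.19 and -0.09 ± 0.19. ATR was at 15.1, 16.6 and 18.0 TPM under siNC DMSO, 15.8, 9.47 and 20.3 under siQ61K DMSO, 11.1, 8.71 and 12.7 under siNC poly(dA:dT) and 14, 13.2 and 19.2 under siQ61K poly(dA:dT). Under poly(dA:dT) every siQ61K library was higher than every siNC library (0.47 ± 0.23, limma adjusted p = 0.17), a difference that did not pass the threshold. TOPBP1 in DMSO was at 34.9 ± 4.18 TPM under siNC and 23.2 ± 5.87 under siQ61K (SD, n = 3), which differ by -0.59 ± 0.19 (limma adjusted p = 0.0316). ATRIP, the partner of ATR, was at 9.57 ± 0.814 and 9.45 ± 0.944 TPM (-0.02 ± 0.14), and -0.40 ± 0.11 after the correction. POLQ was at 4.68 ± 0.787 TPM under siNC DMSO and 3.78 ± 1.28 under siQ61K DMSO (SD, n = 3) and was called in no comparison.

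**Figure D3:**
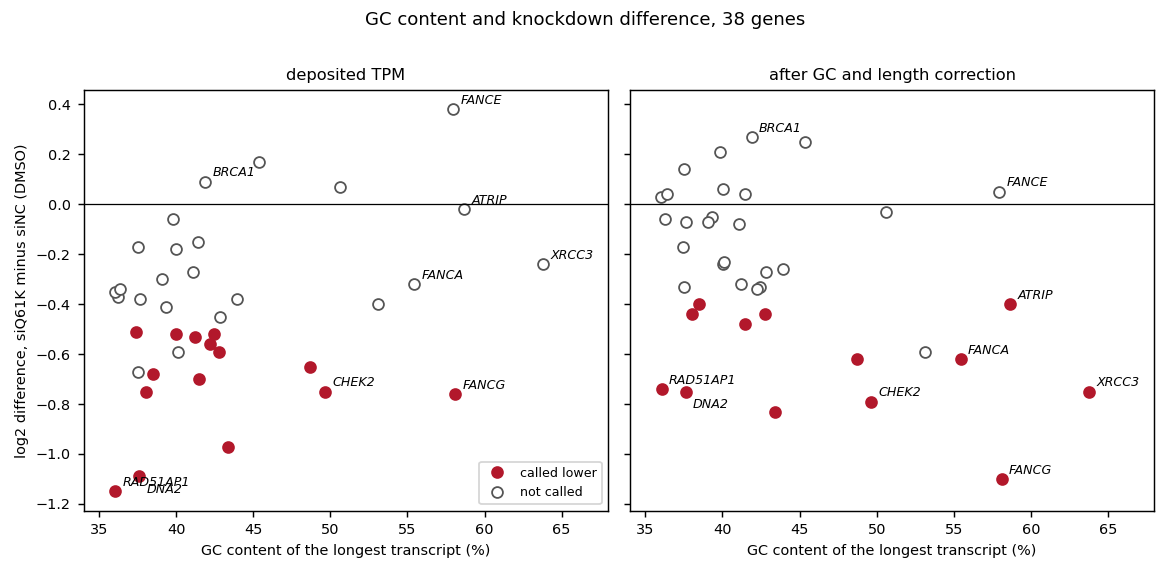
Log2 difference of siQ61K minus siNC in DMSO (vertical axis) against the GC content of the longest transcript in percent (horizontal axis), 1 point per gene for the 38 genes, from deposited TPM at left and after the GC and length correction at right; filled points were called lower. Spearman's correlation over the 38 genes is 0.19 at left and -0.33 at right, and ATRIP, FANCA and XRCC3, which lie at high GC content, are filled in the right panel alone.

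Poly(dA:dT) by itself, in cells with the control siRNA, moved none of the 38 past the threshold. By limma 0 were lower, against 0.0475% of all genes, and 0 were higher, against 0.0747% (3 lower and 1 higher at an unadjusted p under 0.05). The median log2 difference was -0.14, against -0.07 over all genes. The 3 at an unadjusted p under 0.05 were RAD50, ATR and TOPBP1, named after their values were seen, at -0.72 ± 0.25, -0.59 ± 0.23 and -0.45 ± 0.19, and the 1 higher was FANCA at 0.38 ± 0.16. The values of the 2 groups did not overlap for 8 of the 38, against 17.9% of all genes. For 5 of the 38 they did not overlap and were lower with poly(dA:dT), against 10% of all genes. Among all genes without overlap 1474 of 2636 were lower, and among the 38 it was 5 of 8.

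In cells with siQ61K, poly(dA:dT) went with a rise of 6 of the 38 (15.8%), against 6.92% of all genes, and a fall of 1 (2.63%), against 18.3%. The genes that rose were FANCG, PALB2, RMI2, FANCL, RAD51AP1 and RBBP8, and RAD50 fell. After the correction 5 rose, against 5.39% of all genes, and 1 fell, against 3.31%. FANCG, PALB2, RMI2 and RAD50 kept their calls, FANCL, RAD51AP1 and RBBP8 lost theirs, and ATRIP and CHEK2 were called higher. This comparison shares its siQ61K DMSO libraries with the knockdown comparison in DMSO, so a low value there enters both. FANCG rose by 0.90 ± 0.15 (limma adjusted p = 0.00416) and by 1.32 ± 0.18 after the correction. RMI2 rose by 0.66 ± 0.13 (limma adjusted p = 0.00584) and by 0.67 ± 0.11 after it. These 2 calls held whichever library was left out. The calls lost were RAD51AP1 without siQ61K poly(dA:dT) replicate 2 or 3 and PALB2 without siQ61K DMSO replicate 1 or siQ61K poly(dA:dT) replicate 3 (limma adjusted p up to 0.0719 and 0.0635). FANCL lost its call without siQ61K DMSO replicate 1 or 2 or siQ61K poly(dA:dT) replicate 2 or 3, and RAD50 without replicate 1 or 3 of either siQ61K group (limma adjusted p up to 0.112 and 0.105). RBBP8 lost its call when any of 6 libraries was left out, replicate 2 of either siNC group, siQ61K DMSO replicate 1 or 3, or siQ61K poly(dA:dT) replicate 2 or 3 (limma adjusted p up to 0.161). RAD50 fell from 10.4 ± 1.8 to 5.46 ± 1.13 TPM (SD, n = 3), or on the log2 scale -0.82 ± 0.25 (limma adjusted p = 0.0310). With siQ61K DMSO replicate 1 left out 3 rose (FANCG, RAD51AP1 and RMI2) and 0 fell. Without the pair of libraries named above, 0 rose and 0 fell on the deposited values, and FANCG alone was called after the correction. The median over all genes was -0.15 here and -0.01 with median-of-ratios scaling or quantile normalization. With either of these, 10 of the 38 rose, against 12.7% and 11.9% of all genes, and 0 fell, against 11.5% and 13%. The share of higher calls among all calls went from 27.5% to 52.6% and 47.7%.

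The interaction compares the responses to poly(dA:dT), that in siQ61K cells less that in siNC cells. It was higher for 4 of the 38 (10.5%), against 6% of all genes, and lower for 1 (2.63%), against 12.1%. PALB2, RMI2, RAD51AP1 and FANCG were higher and FANCE, a core complex subunit that binds FANCD2, was lower. After the correction FANCG remained (1.25 ± 0.25, limma adjusted p = 0.0324), so 1 of 38 was higher, against 1.39% of all genes, and 0 were lower, against 0.668% (5 higher and 0 lower at an unadjusted p under 0.05 by limma). Of the 12 fits that leave out 1 library, PALB2 was called in 5, RMI2 in 6, RAD51AP1 in 3, FANCE in 3 and FANCG in 4, with limma adjusted p up to 0.0754, 0.069, 0.0986, 0.105 and 0.11. Without siQ61K DMSO replicate 1 or siNC DMSO replicate 1, 0 were called in either direction, and without siNC DMSO replicate 2 FANCG alone was called. With median-of-ratios scaling 6 were higher (DNA2, NBN, PALB2, RAD51AP1, RBBP8 and RMI2), against 9.19% of all genes. With quantile normalization 7 were higher (BARD1 added), against 9.69% of all genes, and FANCG was in neither set. The share of higher calls among all calls of the interaction was 33.2%, and 47.5% and 46.5% with the 2 other scalings. The corresponding share in the knockdown comparison with poly(dA:dT) was 40.8%, 51.3% and 51.2%.

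Further genes of the pathway and of the cell cycle were taken from lists of names, chosen with earlier results of these data known. The genes named from each list are called ones with its largest differences, so they do not stand for the whole list. Of 56 partners of these genes in repair and checkpoint control, 15 fell (26.8%) and 5 rose (8.93%) in DMSO, against 14.8% and 16.6% of all genes. With poly(dA:dT) 11 fell (19.6%) and 3 rose (5.36%), against 12.6% and 8.71% of all genes. The median log2 differences were -0.13 and -0.14, against 0.01 and -0.07 over all genes. After the correction 14 fell (25.0%) and 4 rose (7.14%) in DMSO, against 14.4% and 13.1% of all genes. With poly(dA:dT) it was 13 that fell (23.2%) and 5 that rose (8.93%), against 13.2% and 13.7%. CDC25B and CDC25C, phosphatases that start mitosis and are held back by the checkpoint, fell in both. The log2 differences were -0.83 ± 0.13 and -1.47 ± 0.13 for CDC25B and -1.26 ± 0.20 and -0.93 ± 0.20 for CDC25C, and all 4 calls were kept after the correction, with -1.22 ± 0.08 in both comparisons for CDC25B. FAAP100, a subunit of the Fanconi core complex, rose in DMSO from 11.7, 11.5 and 11.5 TPM to 31.9, 28.5 and 33.7 TPM, a log2 difference of 1.36 ± 0.15 (0.80 ± 0.10 after the correction), opposite in sign to its fellow subunit FANCG. MDC1, the scaffold that ATM marks at breaks, fell with poly(dA:dT), with a log2 difference of -1.27 ± 0.19, and had one of -0.04 ± 0.19 in DMSO (-1.06 ± 0.13 and -0.28 ± 0.13 after the correction).

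Of the 13 tested genes of end joining, the other route of break repair, 3 fell (23.1%) and 1 rose (7.69%) in DMSO, against 14.8% and 16.6% of all genes. With poly(dA:dT) 4 fell (30.8%) and 0 rose, against 12.6% and 8.71% of all genes. After the correction 3 fell in DMSO and 4 with poly(dA:dT), against 14.4% and 13.2% of all genes. In neither did any rise, against 13.1% and 13.7% of all genes. XRCC4, which holds the ends for ligation, fell in DMSO (log2 difference -0.80 ± 0.14, and -0.37 ± 0.10 after the correction) and was not called with poly(dA:dT) (0.17 ± 0.14). XRCC1, a scaffold of strand-break ligation, and POLM, a gap-filling polymerase, fell with poly(dA:dT), at -0.99 ± 0.27 and -0.80 ± 0.21 (-0.77 ± 0.22 and -0.55 ± 0.15 after the correction). Both calls were lost without replicate 2 of either poly(dA:dT) group, and that of XRCC1 also without siQ61K poly(dA:dT) replicate 3 (limma adjusted p up to 0.0845 for XRCC1 and 0.0642 for POLM). POLL, a polymerase related to POLM, rose in DMSO by 0.46 ± 0.14, a call that was not made after the correction (0.18 ± 0.13) and was lost when any of 4 DMSO libraries was left out, siNC replicate 1 or 3 or siQ61K replicate 1 or 2 (limma adjusted p up to 0.101).

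Of 41 tested genes of DNA replication and S phase, 20 fell (48.8%) and 1 rose (2.44%) in DMSO, against 14.8% and 16.6% of all genes. With poly(dA:dT) 18 fell (43.9%) and 1 rose (2.44%), against 12.6% and 8.71% of all genes. The medians were -0.41 and -0.39. After the correction 23 fell (56.1%) and 2 rose (4.88%) in DMSO, against 14.4% and 13.1% of all genes. With poly(dA:dT) it was 21 that fell (51.2%) and 1 that rose (2.44%), against 13.2% and 13.7%. The medians were then -0.47 and -0.36. CCNE1, the cyclin of entry into S phase, was the gene that rose on the deposited values, by 1.06 ± 0.18 and 1.49 ± 0.18, while CDT1 and MCM5, which load and drive the replicative helicase, and TK1, which makes thymidylate, fell with poly(dA:dT), at -1.07 ± 0.19, -1.05 ± 0.13 and -1.05 ± 0.11. In DMSO the differences were -0.43 ± 0.19 for CDT1 and -0.05 ± 0.13 for MCM5, not called, and -0.43 ± 0.11 for TK1, called lower (limma adjusted p = 0.00951), though not without siNC DMSO replicate 2 (limma adjusted p = 0.0523). After the correction all 3 were called lower in DMSO, at -0.97 ± 0.16, -0.38 ± 0.10 and -0.85 ± 0.13. Of 37 genes of mitosis and G2/M, 36 fell in DMSO (97.3%) and 35 with poly(dA:dT) (94.6%), against 14.8% and 12.6% of all genes. Their medians were -1.16 and -0.95. After the correction 37 and 35 fell, against 14.4% and 13.2% of all genes, with medians of -1.03 and -0.94. KIF20A, PLK1, HMMR and KIF2C, which act on the spindle, fell in both, with log2 differences of -0.96 to -1.60 in DMSO and -0.79 to -1.66 with poly(dA:dT), where the call of HMMR was lost without siNC poly(dA:dT) replicate 2 or 3 (limma adjusted p up to 0.0676). The median of the 38 genes in DMSO was -0.41 on the deposited values and -0.27 after the correction, and no test was made between the lists.

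**Figure D4:**
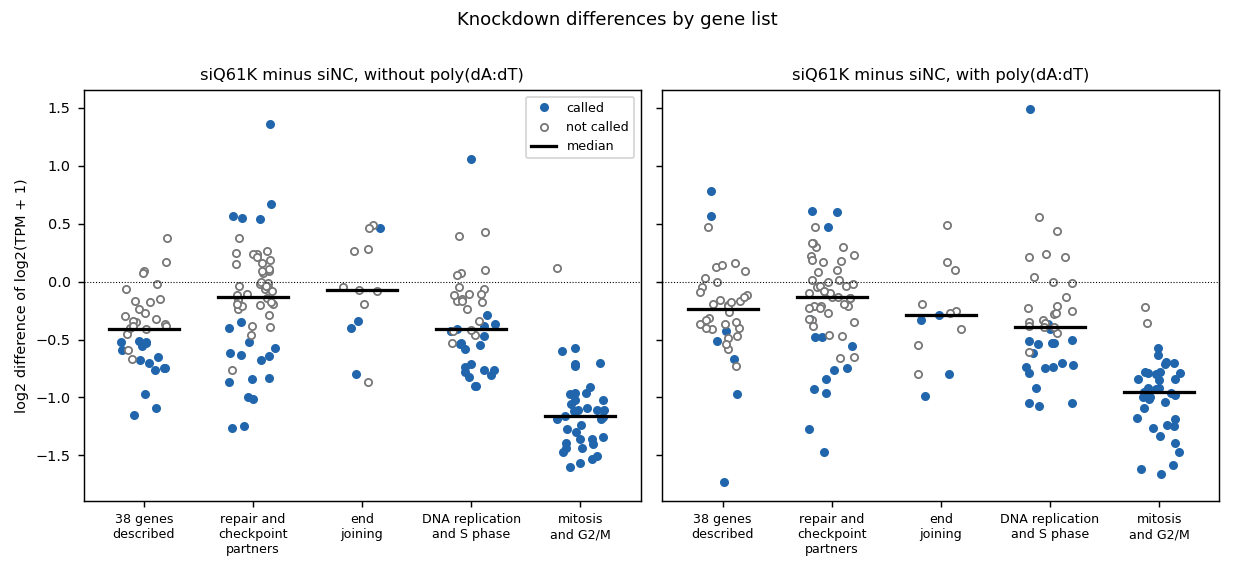
Log2 difference of siQ61K minus siNC (vertical axis), without poly(dA:dT) at left and with it at right, for each tested gene of 5 lists (horizontal axis; positions within a list are jittered), with called genes filled and a line at the median of each list. The mitosis genes lie lowest in both panels, with medians of -1.16 and -0.95, and the 38 repair and checkpoint genes have medians of -0.41 and -0.23.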

How the data were processed

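RNA was measured in 12 libraries, 3 in each of 4 groups named by the sample titles. Libraries were prepared from total RNA with a NEBNext Ultra kit for a NovaSeq instrument, per the labels' protocols. The authors deposited 1 table of TPM per gene symbol. Salmon 0.8.0 and hg19 are named in the submitters' processing notes, while which annotation was used and how transcripts became genes is not given in the sources used here. No counting interval is possible, since TPM holds no depth. Of 56227 entries, 984 shared 58 symbols and were left out.

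The 14722 genes that reached 1 TPM in 3 or more of the 12 libraries were tested as log2(TPM + 1), on which scale the change of low genes is understated. A single model of the groups was fitted to all libraries with limma 3.58.1 under R 4.3.3, using its variance trend, and p-values were adjusted by Benjamini-Hochberg over the genes tested (threshold 0.05). Called means past that threshold, SE is that of the model, and "fell" and "rose" are used of called genes. The fit was tested on simulated data. Nonoverlap of groups was read from TPM, and exact permutation tests were two-sided. Transcript GC content and length (longest transcript) came from GENCODE release 29 for 14667 genes (99.63%), and the correction subtracted a lowess fit (span 0.3) from each library. Coordinates are given for promoter windows alone, from the RefSeq table on GRCh38.p14, because the table of TPM was made on another build.

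The members and lists were chosen with earlier results of these data known. Values in each library are given for the 14 members with the smallest adjusted p over the knockdown comparisons and the interaction. They are also given for BRCA1, BRCA2, FANCD2, ATM, ATR, CHEK1 and CHEK2, and for NRAS. Of each further list up to 4 called genes are named, those with the largest absolute log2 difference in a knockdown comparison. Exceptions are said to be named after their values were seen. Alternatives were pseudocounts of 0.1 and 5, no filter, a minimum mean of 5 TPM, 2 other scalings, the GC and length correction, a replicate block, 2 libraries left out, a fit to the groups compared alone and each library left out. The fit that joins the 2 left-out libraries with the correction was added after the data were seen. Results for some genes are left out of this account.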

Additional observations from a re-analysis of the deposited data

Results flagged for a closer look

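The interaction term of limma, which tests whether the poly(dA:dT) response differs between the siRNAs, passed the threshold for 5 of the 38 genes. It was higher for 4, against 6% of all genes tested, and lower for 1, against 12.1% of all genes, and 0 of the 5 calls held whichever library was left out. The difference, under siQ61K minus under siNC on the log2 scale, was 1.23 for PALB2 (adjusted p = 0.0303), 0.68 for RMI2 (adjusted p = 0.0248), 0.84 for RAD51AP1 (adjusted p = 0.0376), -0.73 for FANCE (adjusted p = 0.0409) and 0.71 for FANCG (adjusted p = 0.0413).
PALB2 went from 9.52 ± 1.20 to 8 ± 2.22 TPM under siNC and from 6.75 ± 1.45 to 14.7 ± 5.30 TPM under siQ61K (SD, n = 3). RMI2 went from 21.6 ± 2.36 to 21.2 ± 1.76 TPM under siNC and from 13.4 ± 0.877 to 21.7 ± 1.8 TPM under siQ61K. RAD51AP1 went from 24.4 ± 3.88 to 21.7 ± 1.84 TPM under siNC and from 10.3 ± 0.236 to 17.6 ± 4.36 TPM under siQ61K. FANCE moved the other way, from 6.26 ± 0.734 to 7.83 ± 0.915 TPM under siNC and from 8.45 ± 0.719 to 5.93 ± 0.886 TPM under siQ61K. FANCG went from 29.5 ± 4.75 to 33.8 ± 4.52 TPM under siNC and from 17.0 ± 2.74 to 32.3 ± 2.28 TPM under siQ61K.

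After the GC and length correction the differences were 1.04 ± 0.30 for PALB2, 0.65 ± 0.16 for RMI2, 0.32 ± 0.16 for RAD51AP1, -0.20 ± 0.17 for FANCE and 1.25 ± 0.25 for FANCG (SE), and that of FANCG alone passed the threshold.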

How the results depend on the processing

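Of 34 calls of single genes in the 5 comparisons, 21 held after the GC and length correction and 11 held whichever library was left out. Under the 24 alternatives 0 changed direction. These alternatives refit the libraries from which the 34 calls were picked, so a change of direction was unlikely from the start. In DMSO the knockdown count of 15 lower ranged from 8 to 18 with 1 library left out. With poly(dA:dT) the knockdown counts of 5 lower and 2 higher ranged from 2 to 7 and from 0 to 2. The lower count was 3 with no filter, with quantile normalization or with 2 siQ61K libraries left out, and 8 with the correction. The higher count was 1 with no filter, with the 2 libraries left out or with the groups compared alone. For poly(dA:dT) under siQ61K the counts of 1 lower and 6 higher ranged from 0 to 2 and from 2 to 6. The lower count was 0 with no filter, either scaling, or the 2 libraries left out, with or without the correction. The higher count was 10 with either scaling, 3 with the groups compared alone, and 0 and 1 with the 2 libraries left out, without and with the correction. For the interaction the counts of 1 lower and 4 higher ranged from 0 to 1 and from 0 to 6. The lower count was 0 and the higher count 1 with no filter and with the correction, both were 0 with the 2 libraries left out, with or without the correction, and the higher count was 7 with quantile normalization. The cause of these shifts was not tested. The counts here and in the next paragraph have no share of all genes called in the same fit beside them. Shifts particular to these genes therefore cannot be told from shifts in all genes.

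Replicate numbers showed no clear pairing of the libraries: correlations of same-numbered deviations ran from -0.26 to 0.233, and no comparison had 3 above 0.1. These deviations were not corrected for GC content. Their trends with it (Spearman) ran in opposite directions in some same-numbered libraries, such as -0.38 in siNC DMSO replicate 1 and 0.32 in siNC poly(dA:dT) replicate 1. The correlations therefore cannot exclude pairing. With the number as a replicate block, 30 of the 34 calls held, and the interaction had 0 lower and 2 higher. With the block and the correction together, the knockdown with poly(dA:dT) had 8 lower, poly(dA:dT) under siQ61K 0 lower, and the interaction 0 lower and 0 higher. TPM keeps no depth, so how far sequencing depth limits the genes near 1 TPM, such as UBE2T, cannot be given.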
